A study of Mus musculus with 4 samples.

Results

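In all, 10 genes of matrix turnover were followed in the draining lymph nodes of the pancreas: the matrix metalloproteinase genes Mmp2, Mmp3, Mmp9, Mmp12, Mmp13, Mmp14 and Mmp19, and the inhibitor genes Timp1, Timp2 and Timp3. They were taken by symbol, through the RefSeq transcript that each array probe carries, and all 10 had at least 1 probe, 13 probes in all among the 41174 on the array. Of these probes 11 passed a filter on dim signal, so that 8 of the 10 genes were tested among 21320 genes and unnamed transcripts. Mmp12 and Mmp13 did not pass.

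The animals were 4 female NOD mice of 12 weeks, with no treatment given in the labels. NOD is an inbred strain prone to autoimmune diabetes without any intervention. From each mouse the gastric lymph node (left of the pancreas) and the pancreatico-duodenal lymph node (right) were hybridised together to a two-colour Agilent array. The gastric node always carried the red dye Cy5 and the pancreatico-duodenal node the green dye Cy3. Dye and node therefore cannot be told apart for any gene.

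Matrix metalloproteinases are zinc-dependent enzymes that cleave collagens, laminins, proteoglycans and many cell-surface proteins outside the cell. They are made as inactive proenzymes, and tissue inhibitors of metalloproteinases, the TIMPs, bind the active site and block it. In lymph nodes, fibroblastic reticular cells, endothelium, macrophages, migrating dendritic cells and neutrophils are known sources of these enzymes and inhibitors.

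Values are log2 ratios of the gastric over the pancreatico-duodenal node, so a negative value is a lower level in the gastric node, and errors are SDs over the 4 mice. Lower levels in the gastric node were found for the gelatinase gene Mmp2 and, at a much smaller size, for the inhibitor gene Timp2, which turned to higher when the arrays were centred on their median in place of loess. Mmp2 was 1.80-fold lower (-0.85 ± 0.09, n = 4; limma adjusted p = 0.0157) and Timp2 was 1.18-fold lower (-0.23 ± 0.04, n = 4; limma adjusted p = 0.0399). No member passed as higher. Of 8 members tested, 2 were called lower, against 4.45% called lower and 3.09% called higher among all features. The median of the 8 members was -0.20, against 0.03 for all features. Timp3 and Mmp9 lay between them in size, at -0.60 and -0.43, and did not pass. At an unadjusted p under 0.05, limma gave 6 members as lower and 0 as higher, against 13.6% lower and 17.1% higher among all features.

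**Figure D1:**
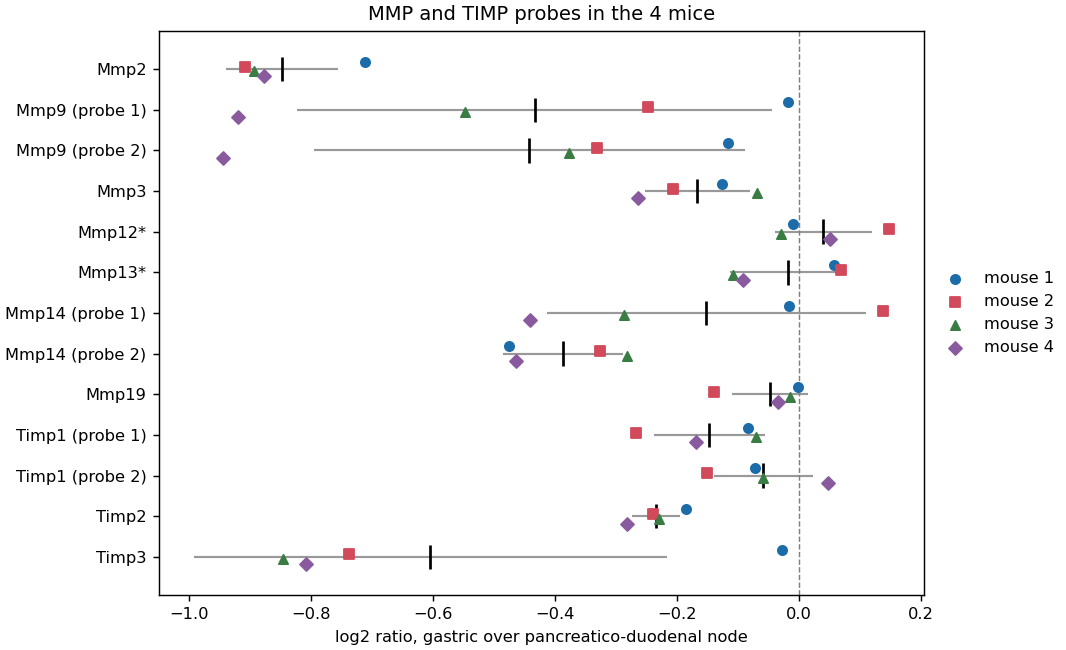
Log2 ratio of the gastric over the pancreatico-duodenal node for each of the 13 probes, with 1 symbol per mouse, a vertical bar for the mean and a horizontal line for the SD over 4 mice; probe 1 is the one used for the gene and an asterisk marks genes not tested. Mmp2 lies between -0.91 and -0.71 in all 4 mice, while Mmp9 and Timp3 reach from near 0 to about as low as Mmp2. Timp2, Timp1 probe 1 and Mmp14 probe 1 turned to higher with median centring, where Timp1 stayed below the median of all features.

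Over the whole series, the share of probes well above background was 67.1% to 71.4% in the gastric and 59.6% to 62.6% in the pancreatico-duodenal channel, and no spot was saturated. The 4 arrays, 1 per mouse, limit the precision. All 9 lymphocyte markers were measured, with a list median of 0.07, and limma called none of them (0 at an unadjusted p under 0.05). Pancreas and fat genes differed by mouse: the median of 10 exocrine pancreas genes was -4.69 in mouse 3 against -0.28 to 0.88 elsewhere, and that of 7 adipocyte genes was 1.72, -1.93, 0.36 and -1.67 in mice 1 to 4. limma called none of the genes of these lists (at an unadjusted p under 0.05, 0 pancreas genes and 1 adipocyte gene, lower). Without mouse 2, 3 or 4 the calls over all features fell to 0, 3 and 1, all lower, whereas without mouse 1 they numbered 844 higher and 1323 lower. Each statement of a call here therefore rests on all of mice 2, 3 and 4.

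The members differed first in whether they could be seen at all. Mmp12, the macrophage elastase gene, and Mmp13, the gene of a collagenase, were not well above background in either node on any of the 4 arrays. Mmp3, which encodes stromelysin, was well above background on 3 gastric and 2 pancreatico-duodenal arrays. Mmp19 was so on all 4 gastric arrays and on none of the other channel. The probes of Mmp2, Mmp9, Mmp14, Timp1, Timp2 and Timp3 were well above background on 4 of 4 arrays in both nodes.

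Promoter sequences were at hand from RefSeq (GRCm38.p6) for 7 of the 10 genes. Those of 6 are shown because AP-1 and GC box matches fell on different genes among them; Timp1 is given by its counts. Each line gives the 250 bases before the annotated start, 5′ to 3′ on the gene's strand, with motif matches in capitals.
Mmp13, chr9:7272264-7272513 (+ strand): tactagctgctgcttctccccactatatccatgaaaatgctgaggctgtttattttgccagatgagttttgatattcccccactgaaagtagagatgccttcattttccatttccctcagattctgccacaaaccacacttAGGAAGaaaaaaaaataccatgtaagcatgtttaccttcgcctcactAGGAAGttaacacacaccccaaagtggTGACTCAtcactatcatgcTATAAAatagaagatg
Mmp12, chr9:7347124-7347373 (+ strand): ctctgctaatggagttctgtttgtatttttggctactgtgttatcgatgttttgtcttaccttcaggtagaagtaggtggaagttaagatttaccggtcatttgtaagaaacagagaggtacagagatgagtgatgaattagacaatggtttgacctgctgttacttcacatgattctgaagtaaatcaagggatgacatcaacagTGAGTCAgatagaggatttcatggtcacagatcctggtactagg
Mmp3, chr9:7445572-7445821 (+ strand): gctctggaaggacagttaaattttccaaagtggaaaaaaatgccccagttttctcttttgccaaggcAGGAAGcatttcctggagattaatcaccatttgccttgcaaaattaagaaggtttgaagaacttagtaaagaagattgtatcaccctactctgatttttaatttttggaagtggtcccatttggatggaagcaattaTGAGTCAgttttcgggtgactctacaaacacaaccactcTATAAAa
Mmp14, chr14:54431348-54431597 (+ strand): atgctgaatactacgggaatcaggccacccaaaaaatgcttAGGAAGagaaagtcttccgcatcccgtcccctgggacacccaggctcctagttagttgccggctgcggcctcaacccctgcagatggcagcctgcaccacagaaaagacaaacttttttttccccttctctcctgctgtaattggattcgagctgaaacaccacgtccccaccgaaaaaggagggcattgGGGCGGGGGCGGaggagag
Timp2, chr11:118355412-118355661 (- strand): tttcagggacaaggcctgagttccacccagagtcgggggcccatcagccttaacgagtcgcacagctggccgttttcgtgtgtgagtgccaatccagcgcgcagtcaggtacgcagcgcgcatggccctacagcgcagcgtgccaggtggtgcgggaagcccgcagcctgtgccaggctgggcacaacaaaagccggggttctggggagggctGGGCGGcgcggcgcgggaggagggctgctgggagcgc
Timp3, chr10:86300162-86300411 (+ strand): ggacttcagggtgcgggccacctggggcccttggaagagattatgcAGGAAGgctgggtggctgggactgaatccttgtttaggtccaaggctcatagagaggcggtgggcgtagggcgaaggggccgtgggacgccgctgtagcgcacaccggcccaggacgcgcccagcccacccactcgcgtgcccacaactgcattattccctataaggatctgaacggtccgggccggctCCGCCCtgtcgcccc

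The letters searched on both strands were TGAGTCA for the AP-1 site, TATAAA for the TATA box, GGGCGG for the GC box and AGGAAG for the PEA3 or Ets site. The 3 neighbouring genes on chromosome 9, Mmp13, Mmp12 and Mmp3, each held 1 AP-1 match, beginning 35, 44 and 46 bases before the start, a motif found in 4.46% of 32851 promoters of this length. In Mmp12 this was so for 1 of its 2 annotated starts, the one shown. Mmp13 and Mmp3 also held a TATA box match (12.4% of all promoters). Timp2, Timp3, Timp1 and Mmp14 held 1, 1, 1 and 2 GC box matches (32.7% of all promoters) and none of AP-1 or the TATA box. The PEA3 or Ets letters (29.5% of all promoters) occurred on both sides, with 2 matches in Mmp13, 1 in Mmp3, 2 in Timp1, 1 in Mmp14 and 1 in Timp3, none in Timp2, and in Mmp12 1 at the start not shown. The 250 bases of Timp2, Timp3, Timp1 and Mmp14 were 68.0%, 65.6%, 54.4% and 55.2% G and C, against 37.6% to 40.4% in the other 3 genes shown and a median of 52.4% over all promoters. A match describes letters, not binding.

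Among the gelatinases, which cleave denatured collagen and the type IV collagen of basement membranes, Mmp2 is the one made mainly by fibroblasts and other stromal cells. Its normalized log2 intensity in the pancreatico-duodenal node was 8.90, 8.71, 8.68 and 8.79 in mice 1 to 4, and in the gastric node 8.19, 7.80, 7.79 and 7.91. The highest gastric value lay below the lowest pancreatico-duodenal value, so that the levels of the nodes did not overlap. The log2 ratio was -0.71, -0.91, -0.89 and -0.88, lower in 4 of 4 mice, with mouse 1 the least changed. The 95% interval of the mean ratio ran from -0.98 to -0.72, and Mmp2 ranked number 7 of 21320 features by p. Gastric levels all below pancreatico-duodenal levels were found for 3 of the 8 tested genes, Mmp2, Mmp3 and Timp3, against 7.34% of all features. For Timp3 the gap was narrow, 11.62 against 11.65, both in mouse 1. Mmp3 was close to the background, and well above it on only 2 pancreatico-duodenal arrays.

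The Mmp2 difference kept its sign under all 14 alternatives, between -1.05 with the scanner software's ratio and -0.49 with median centring, where it lay 0.82 below the median of all features. Its call was lost without mouse 2, 3 or 4 (adjusted p = 0.134, 0.0668 and 0.151) and kept without mouse 1 (adjusted p = 0.00565). The call was also lost with arrays scaled to a common spread and with limma's intensity trend and robust variance, where no feature at all was called. Markers of stroma and macrophages were lower in part as well. Of 14 fibroblast stroma markers, 5 of which also stand in the list of matrix genes, 4 were lower and none higher. The list median was -0.22. The 4 were the matrix genes Col1a1, Col1a2 and Col3a1, and Madcam1. Ccl19, Cxcl13, Pdgfra, Pdgfrb and Thy1 read above 0, and the other markers below it. At an unadjusted p under 0.05, limma gave 6 as lower and 2 as higher, against 13.6% and 17.1% of all features. The summed intensity of the list was 137800 to 179900 in the gastric and 146200 to 170200 in the pancreatico-duodenal nodes. Of 13 measured macrophage markers 7 were lower, with a median of -0.78 and summed intensities of 46140 to 75160 against 84640 to 120000. Among the macrophage markers Cd68 and Vsig4 gave no measured value. Lymphatic and blood endothelium had 4 and 3 of 9 markers lower, with medians of -0.39 and -0.25. Dendritic cell markers had 3 of 8 lower (Flt3, Fscn1 and Itgax), with a median of -0.45. None of these lists held a marker called higher, against 4.45% called lower and 3.09% called higher among all features. At an unadjusted p under 0.05, limma gave 11 macrophage markers as lower and 1 as higher (Itgam, 0.16). For lymphatic endothelium, blood endothelium and dendritic cells it gave 6, 5 and 6 as lower and none as higher. The shares of all features at that threshold were again 13.6% and 17.1%. The part of these cells in the Mmp2 result was not tested. In whole nodes, fewer cells of a type and less RNA per cell cannot be told apart.

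**Figure D2:**
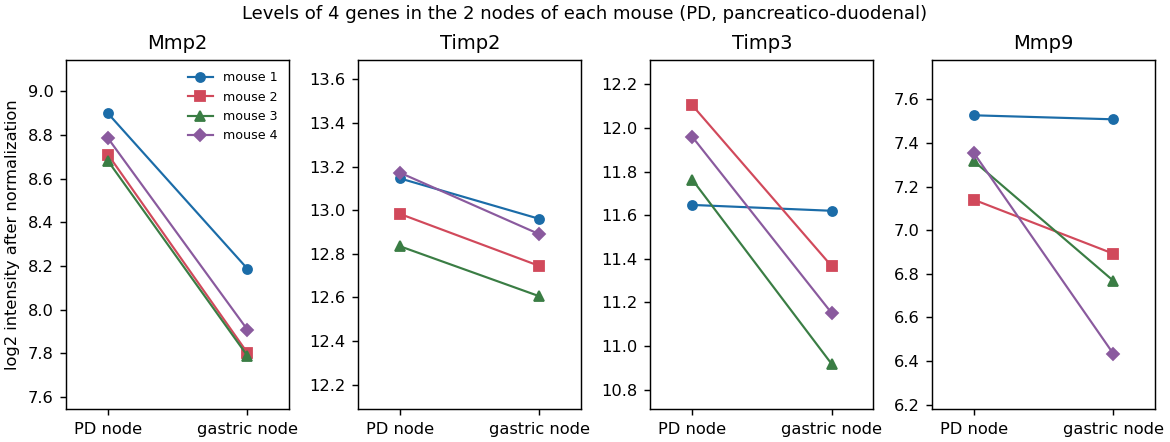
Normalized log2 intensity of Mmp2, Timp2, Timp3 and Mmp9 in the pancreatico-duodenal (PD) and gastric node, with 1 line per mouse and axes of equal span. Mmp2 slopes down alike in all mice; Timp3 is flat in mouse 1 (11.65 and 11.62) and falls in the other mice; Mmp9 is flat in mouse 1 and falls most in mouse 4; the small slope of Timp2 reversed under median centring.

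Mmp9, the gelatinase gene best known from neutrophils and macrophages, varied from mouse to mouse. Its intensity in the pancreatico-duodenal node was 7.53, 7.14, 7.32 and 7.35, and in the gastric node 7.51, 6.89, 6.77 and 6.43, in mice 1 to 4. The nodes were level in mouse 1 and far apart in mouse 4. The log2 ratio was -0.02, -0.25, -0.55 and -0.92, below 0 in 4 of 4 mice, and did not pass (-0.43 ± 0.39, n = 4; limma adjusted p = 0.119).

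The probe used for Mmp9 was printed 10 times on each array, and the SD over its spots was 0.04, 0.06, 0.09 and 0.05 in mice 1 to 4. Spots of an array share labelling, hybridisation and normalization, so this SD leaves out the error of those steps. In mouse 4 the spots ran from -1.01 to -0.86 and in mouse 1 from -0.09 to 0.07. A further Mmp9 probe, with 1 spot, gave -0.12, -0.33, -0.38 and -0.94 in the same mice, a mean of -0.44 ± 0.35 (n = 4). Without mouse 1 the gene passed at -0.57 (limma adjusted p = 0.0475).

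The medians of the neutrophil and macrophage marker lists did not order the mice as Mmp9 did. The median of 5 measured neutrophil markers was 0.08, -1.92, -0.38 and -0.19 in mice 1 to 4, lowest in mouse 2. Of these 5, none was called lower and 1 was called higher: Cxcr2, a chemokine receptor gene, at 0.54 ± 0.21 and above 0 in 4 of 4 mice (n = 4; limma adjusted p = 0.0330), with a further probe at 0.15. S100a8 and S100a9, which encode the calprotectin subunits, read -0.83 ± 1.34 and -1.48 ± 1.94 and did not pass. The neutrophil genes Camp, Elane, Ltf, Ly6g and Ngp gave no measured value, and the neutrophil collagenase gene Mmp8 had no probe past the filter. The macrophage median was -0.36, -0.72, -1.15 and -0.78, lowest in mouse 3. Within that list Csf1r (-0.18 to -0.56) and Marco (0.05 to -1.39) fell from mouse 1 to mouse 4 in the order of Mmp9. The other measured macrophage markers did not, while some genes of other lists fell in that order too. Among them were the blood endothelial marker Kdr (-0.02 to -0.74), the dendritic cell marker Xcr1 (0.01 to -0.84) and the lymphatic marker Reln (-0.47 to -1.15). The order therefore does not single out macrophage markers. The part of neutrophils, macrophages or other cells in the Mmp9 values was not tested.

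The other secreted enzymes gave small or unmeasured differences. Mmp3, which cleaves proteoglycans, laminin and fibronectin and activates other proenzymes, was at 6.39, 6.45, 6.32 and 6.41 in the pancreatico-duodenal and 6.27, 6.25, 6.25 and 6.15 in the gastric nodes, close to the background in both. Its log2 ratio was -0.13, -0.21, -0.07 and -0.26 in mice 1 to 4, lower in 4 of 4 mice, and did not pass (-0.17 ± 0.09, n = 4; limma adjusted p = 0.0969). The size depended on how the background was handled. It was -0.34 with an offset of 10 in place of 50, and -0.78 with the scanner software's ratio, where Mmp3 passed (limma adjusted p = 0.0316).

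Mmp19, a secreted enzyme of basement membrane turnover, was at 6.44, 6.39, 6.32 and 6.34 in the pancreatico-duodenal and 6.44, 6.25, 6.30 and 6.31 in the gastric nodes of mice 1 to 4, and did not pass (limma adjusted p = 0.519). It was not well above background in any pancreatico-duodenal node, so its level there is only a bound and no size of the difference is given. With median centring limma called Mmp19 lower, against the same bound. Mmp12 and Mmp13 were not well above background in either node. The intensity of Mmp12 was 6.04 to 6.14 in the pancreatico-duodenal and 6.09 to 6.19 in the gastric nodes, and that of Mmp13 was 5.99 to 6.05 and 5.94 to 6.10. The nodes overlapped for both genes.

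Mmp14 encodes the membrane-type enzyme that cleaves fibrillar collagen at the cell surface and activates the Mmp2 proenzyme in a complex with the Timp2 protein. Its 2 probes disagreed. The probe used for the gene gave -0.02, 0.14, -0.29 and -0.44 in mice 1 to 4 and did not pass (-0.15 ± 0.26, n = 4; limma adjusted p = 0.362). It turned to higher with median centring, at 0.42 (limma adjusted p = 0.00587).

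The other Mmp14 probe gave -0.48, -0.33, -0.28 and -0.46, lower in 4 of 4 mice, with gastric levels from 7.36 to 7.48 below pancreatico-duodenal levels from 7.70 to 7.95. With every kept probe tested on its own it passed as lower (-0.39 ± 0.10, n = 4; limma adjusted p = 0.0260), against 4.92% of 27603 probes. It stayed lower and called with median centring (-0.16) and with the scanner software's ratio (-0.57). Its call was lost with arrays scaled to a common spread (-0.39, limma adjusted p = 0.126) and without mouse 2, 3 or 4. In mouse 2 the probes of this gene lay on opposite sides of 0. Mmp2, Mmp3, Mmp19, Timp2 and Timp3 had 1 probe each, so that no such check could be made for them.

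Among the inhibitors, Timp2, which blocks a wide range of metalloproteinases and takes part in Mmp2 activation, showed a small and even difference. Its intensity was 13.15, 12.98, 12.83 and 13.17 in the pancreatico-duodenal and 12.96, 12.74, 12.61 and 12.89 in the gastric nodes of mice 1 to 4. The ranges of the nodes overlapped, while within each mouse the gastric value was the lower one. The ratio was -0.19, -0.24, -0.23 and -0.28. This call was lost in 8 of 14 alternatives, with values from -0.26 to -0.19. With median centring the direction turned, to 0.40 (limma adjusted p = 0.00074), which lay 0.07 above the median of all features there.

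Timp3, the inhibitor that binds to the extracellular matrix and also blocks ADAM enzymes, differed between the nodes in 3 of the mice. Its intensity in the pancreatico-duodenal node was 11.65, 12.10, 11.76 and 11.96, and in the gastric node 11.62, 11.37, 10.92 and 11.15. Mouse 1 had nearly equal levels, and the others had clearly less in the gastric node. The ratio was -0.03, -0.74, -0.85 and -0.81, and the mean did not pass (-0.60 ± 0.39, n = 4; limma adjusted p = 0.0621). Without mouse 1 it was -0.80 and passed (limma adjusted p = 0.00657). With median centring it was -0.03, which was 0.36 below the median of all features.

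Timp1, the inducible inhibitor, was at -0.08, -0.27, -0.07 and -0.17 in mice 1 to 4 and did not pass (-0.15 ± 0.09, n = 4; limma adjusted p = 0.127). Its other probe gave -0.06 ± 0.08, with mouse 4 above 0. With median centring these probes passed in opposite directions when every probe was tested, at 0.23 and -0.23. Both lay below the median of all probes there.

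**Figure D3:**
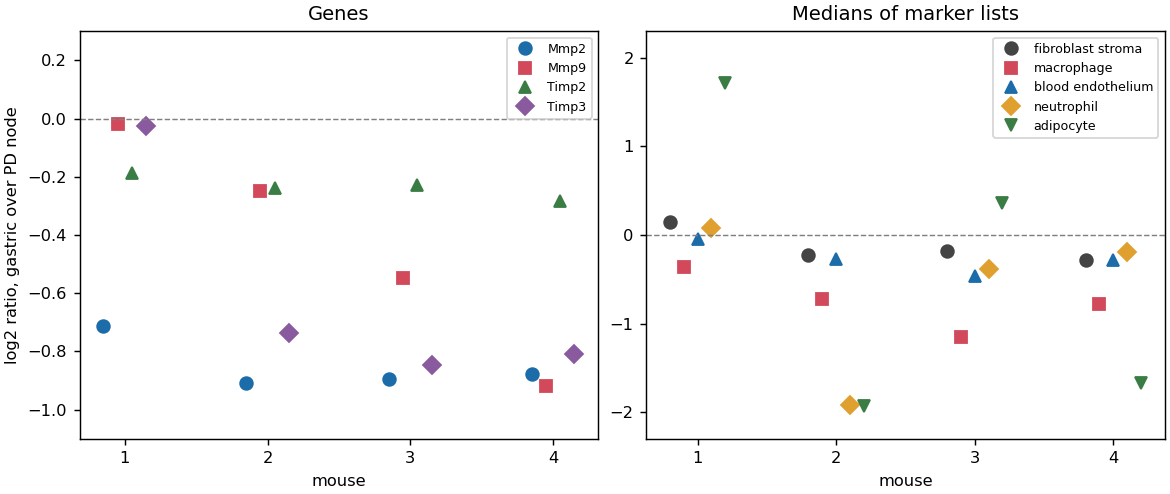
Log2 ratio of the gastric over the pancreatico-duodenal (PD) node by mouse, for Mmp2, Mmp9, Timp2 and Timp3 (left) and as medians of 5 marker lists (right). Mouse 1 is nearest to 0 for all 4 genes, as it is for fibroblast, macrophage and endothelial markers; Timp2 turned to higher under median centring.

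Mouse 1 had the ratio nearest to 0 for Mmp2, Mmp9, Timp2 and Timp3. In the same mouse the stromal median was 0.14, against -0.28 to -0.18 in the others, and the blood endothelial median was -0.04, against -0.47 to -0.27. The adipocyte median of mouse 1 was the highest of the 4, at 1.72. The part of these tissues in the difference between the mice was not tested.

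Beyond the members, 112 genes of the protease network and its targets were listed, of which 87 were measured. Of these 19 were lower and 1 was higher, against 4.45% lower and 3.09% higher among all features, and their median was -0.13. The same shares stand beside the counts of each list below. With median centring in place of loess, where the median of all features moved from 0.03 to 0.32, the counts were 7 lower and 34 higher. Among all 21320 features, that setting called 2066 lower and 12821 higher.

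Other metalloproteinase genes had 1 of 9 measured members lower and none higher, with a median of -0.26. It was Mmp23, a gene of a type II membrane enzyme, at -0.40 ± 0.08 (n = 4; limma adjusted p = 0.0254), which read 0.08 with median centring. Mmp25, a membrane-type enzyme gene of leukocytes, was at -0.45 ± 0.28 (n = 4; limma adjusted p = 0.0644), with -0.87 in mouse 1 and -0.32 to -0.27 in the other mice. The stromelysin 3 gene Mmp11 was at 0.15 ± 0.10 (n = 4; limma adjusted p = 0.137). Neither passed.

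The ADAM and ADAMTS proteases, relatives that shed membrane proteins or process matrix, had 4 of 14 measured members lower and none higher, with a median of -0.27. Adam8, a sheddase gene of myeloid cells, was the lowest at -0.96 ± 0.29 (n = 4; limma adjusted p = 0.0250), with -1.39 in mouse 3 and -0.89 to -0.74 in the others. Adamts2, which trims procollagen, was at -0.54 ± 0.14, and Adamts10, a gene of microfibril assembly, at -0.40 ± 0.12. Their further probes read only -0.13 and -0.19. With median centring Adam8 kept its call, Adamts2 lost it and Adamts10 turned to 0.03. Adam17, which sheds tumour necrosis factor, was at -0.10 ± 0.28 and did not pass; with median centring it was at 0.42.

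The plasminogen activator system, which can activate metalloproteinase proenzymes, had none of 7 measured genes called by limma (1 lower and 1 higher at an unadjusted p under 0.05), and its median was -0.06. Plau, the urokinase gene, was at -0.06 ± 0.09, its receptor gene Plaur at 0.18 ± 0.13 and the plasminogen receptor gene Plgrkt at 0.03 ± 0.25 (n = 4).

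Among activators, inhibitors and partners, 2 of 10 measured genes were lower and none higher, with a median of -0.02. Thbs2, which encodes a thrombospondin that takes part in clearing Mmp2, was at -0.59 ± 0.22, and Bsg, which encodes the metalloproteinase inducer basigin, at -0.45 ± 0.10 (n = 4). Bsg turned to 0.02 and Thbs2 lost its call with median centring. Reck, a membrane-anchored inhibitor gene, was at -0.02 ± 0.13 and did not pass; it read 0.33 with median centring.

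Lysosomal proteases and their inhibitors had 3 of 11 measured genes lower and none higher, with a median of -0.18. They were the cathepsin gene Ctsd at -0.75 ± 0.08, the cystatin C gene Cst3 at -0.59 ± 0.24 and the legumain gene Lgmn at -0.58 ± 0.11 (n = 4). With median centring Ctsd lost its call, at -0.06, Lgmn turned to 0.02 and Cst3 to 0.19.

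Of the matrix proteins that these enzymes cut, 9 of 19 measured genes were lower and none higher, with a median of -0.41. They were Col1a1, Col1a2, Col3a1, Col4a1, Col4a2, Col6a1, Bgn, Eln and Fn1, from -0.84 to -0.34. Col3a1, a fibrillar collagen gene, was at -0.84 ± 0.34, the proteoglycan gene Bgn at -0.72 ± 0.14 and Col1a1 at -0.61 ± 0.25 (n = 4). The basement membrane genes Col4a1 and Col4a2, which encode a substrate of both gelatinases, were at -0.41 and -0.47. A further probe of Col3a1 read -0.12, and further probes of Col1a1 -0.51 and -0.11. With median centring 1 gene of the list was lower and 3 were higher.

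Genes of cytokines and transcription factors that induce metalloproteinase genes had 1 of 17 measured members higher and none lower, with a median of -0.02. It was Ets1, an Ets family factor gene, at 0.27 ± 0.10 (n = 4; limma adjusted p = 0.0455), with further probes at 0.05 and 0.22. Its call was lost with the scanner software's ratio.

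**Figure D4:**
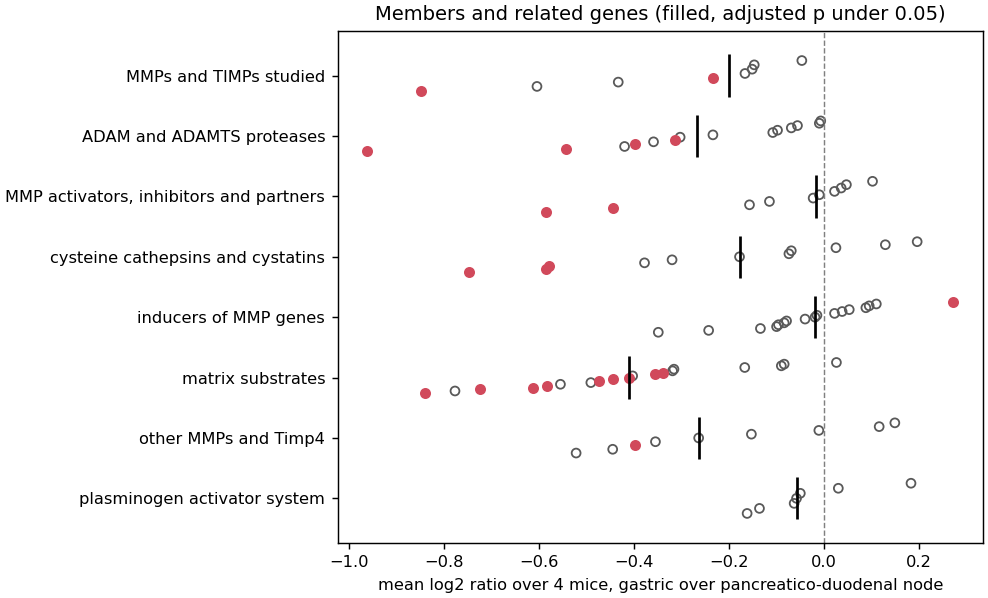
Mean log2 ratio over 4 mice of each measured gene, by list, with genes at a limma adjusted p under 0.05 filled and a bar at the list median. Filled genes lie below 0 in 6 of the 8 lists shown, Ets1 is the filled gene above 0, and the plasminogen activator system has none. Under median centring, 34 related genes were called higher and 7 lower, against 12821 higher and 2066 lower among all 21320 features.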

How the data were processed

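RNA of both nodes of each mouse was amplified, labelled and hybridised to 1 two-colour array, per the labels' protocols. The deposited scanner files give spot and background intensity per channel, made by the authors with Agilent Feature Extraction 10.2.1.3, per the file headers. Per the file headers they also hold the authors' processed intensity and, from it, a log10 ratio (red over green). A series table deposited by the authors gives 1 log2 ratio per probe and array. It equals the mean, over all spots of a probe, of each spot's log2 ratio of processed signals (largest difference 5.11e-05). This match and the column medians of -0.15, -0.06, -0.03 and -0.03 settled its scale, centring and direction.

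Background was removed from mean intensities by normexp with an offset of 50, followed by loess within arrays, in limma 3.58.1 (R 4.3.3; data.table, version 1.17.8), with control and outlier-flagged spots at weight 0 and flagged spots then left out. Probes well above background in 1 channel on at least 3 of 4 arrays were kept, 27603 in all. They were named by accession through the RefSeq table of GRCm38.p6, which matched 24844 of 41174 probes. A gene's probe of highest mean intensity was used. limma's moderated test (lmFit, eBayes) set the mean ratio of 4 mice against 0, with Benjamini-Hochberg adjustment over all features and a threshold of 0.05. The ratio pairs the nodes of a mouse. Levels per node are intensities after loess and Aquantile. All arrays lay on 1 slide and shared 1 scan, so no batch could be compared.

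The steps were also run on simulated intensities, with an invented dye curve shared by all arrays and independent noise. That setting cannot show a dye effect of single genes or tissue differences between mice, and no result here rests on it. Members and lists were chosen with earlier results of these data known. The text names every member, up to 3 called genes of each related list (or the brightest) and 9 further genes, of which Mmp8 did not pass the filter and 1 is not reported here. Marker lists are given by their counts and medians, with some single markers named. The 14 alternatives covered background correction, normalization, filter, choice of probe, variance model, the series table and each mouse left out. No probe or protein sequences were used here.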

Additional observations from a re-analysis of the deposited data

Results flagged for a closer look

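Values in 4 mice were examined for 1 that stood apart from the other 3, by the gap to its nearest neighbour over the whole range. Of 62 sets of values 5 exceeded Dixon's 95% critical value, and chance alone would mark about 1 in 20. In each of the 5 it was mouse 1 that stood apart. Mmp2 was at -0.71 in mouse 1, Timp3 at -0.027, and the macrophage scavenger receptor gene Cd163 at -0.82, each nearer to 0 than in mice 2 to 4. The median of the cathepsin and cystatin list was also nearest to 0 there, at -0.093. Mmp25 went the other way, at -0.87 in mouse 1. The sets come from the same 4 arrays, so they are not independent. What sets mouse 1 apart in these 5 sets was not tested.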

How the results depend on the processing

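Mmp2 kept its direction in all 14 alternatives and its call in 9 of them. Its call was lost with arrays scaled to a common spread (-0.95), with the intensity trend and robust variance (-0.85), and without mouse 2, 3 or 4; without single mice its values ranged from -0.89, without mouse 1 and still called, to -0.83. Timp2 lost its call with the scanner software's ratio (-0.19), the authors' series table (-0.19), the offset of 10 (-0.23), scaled arrays (-0.26), and the robust variance (-0.23), while its range without single mice was -0.25 to -0.22. Median centring gave Timp2 0.40, Timp1 0.23 and Mmp14 0.42, all reversed in sign. The median of all features was 0.32 there, and Timp1 lay below it. The same setting called Mmp19 (-0.25, against a channel not well above background) and Mmp3 (-0.39) as lower. Mmp3 was also called with the scanner ratio (-0.78) and the series table (-0.78). Without single mice, Mmp9 ranged from -0.57 to -0.27 and Timp3 from -0.80 to -0.52. Among other genes named, those reversed in sign by median centring were Adam17 (0.42), Adamts10 (0.032), Bsg (0.024), Cst3 (0.19), Lgmn (0.019), Mmp23 (0.077), Plvap (0.054, a vessel marker) and Reck (0.33). Of these, only Adam17 and Reck lay above the median of all features there. Members called lower numbered 1 with the offset of 10, 0 with scaled arrays, 0 with the robust variance, and 0 to 4 without single mice; 3 were called higher with median centring. Over all features, lower and higher calls numbered 2066 and 12821 with median centring, 572 and 477 with the scanner ratio, 584 and 489 with the series table, and 0 and 0 with scaled arrays or the robust variance, where 5456 and 6704 had an unadjusted p under 0.05. Without single mice they ran from 0 to 1323 and from 0 to 844. Higher calls made up 41.0% of all calls, and 86.1% with median centring. Related genes called lower and higher numbered 7 and 34 with median centring and 0 and 0 with scaled arrays or the robust variance, and no related gene was called higher with the offset of 10 or the mean of a gene's probes. Without single mice these counts ran from 0 to 27 and from 0 to 1. The causes were not tested. Since the ratio on each array already pairs the nodes of a mouse, the test is paired throughout; no replicate block was added and no unpaired test was run. Signal over background limits Mmp3, Mmp12, Mmp13 and Mmp19. The size of the Mmp9 difference also moved with background handling, to -0.66 with the offset of 10 and -0.90 with the scanner ratio.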
